A study of Mus musculus with 9 samples.

Results

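Touchdome keratinocytes were set against HF (hair follicle) keratinocytes across all genes, with 3 poly(A) RNA-seq libraries a side, which are 6 of the 9 libraries of the series. The members were chosen by the label of each library, and the other 3 libraries are IFE (interfollicular epidermis). All 9 came from the back skin of C57BL/6 mice of the genotype TNC-CREER; tdTomato, collected at postnatal day 60 after tamoxifen at 100 µg/g body weight on days P51 and P52. In these mice the promoter of Tnc, which encodes Tenascin-C, drives a tamoxifen-dependent Cre that turns on a red reporter. The Touchdome group is therefore made of cells that used this promoter around the time of injection, or that descend from such cells. After 60 min in 0.25% trypsin at 37 °C, cells were gated as positive for EPCAM and integrin α6 in every group. Touchdome cells were also SCA1-positive and TOMATO-positive, and HF cells were negative for both. Follicle cells that held SCA1, or in which the reporter had been turned on, are therefore outside the HF group. Both marks differ together between the groups, so their parts in a difference cannot be told apart. Whether replicates were separate animals or pools is not in the labels, so the p-values rest on the spread among these libraries, part of which may be technical.

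A touch dome is a small patch of epidermis beside certain hair follicles, where columnar keratinocytes sit under and around Merkel cells and receive touch-sensing nerve endings. The hair follicle is the appendage that makes the hair shaft. Its lower resting part, the bulge and hair germ, holds slow-cycling stem cells, its upper part opens to the surface, and the sebaceous gland hangs from its side. Wnt, Hedgehog and BMP signals set when follicle stem cells rest or divide, while the epidermis between follicles renews all the time and moves cells upward through spinous and granular layers.

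Library totals were 10735431 to 15477297 expected counts in Touchdome and 9295059 to 21358479 in HF, so that 3 counts are worth 0.192 to 0.268 CPM and 0.137 to 0.316 CPM. CPM is the usual count scaled to library size, and values are given for replicates 1, 2 and 3 in that order unless a range is stated. LFC is the log2 fold change of Touchdome over HF, with its standard error after ±. The genes behind the gate check the labels and are no result. Ly6a (ENSMUSG00000075602), which encodes SCA1, stood at 140.5, 131 and 104 CPM in Touchdome against 0.914, 0.422 and 1.90 CPM in HF (LFC 6.78 ± 0.36, adjusted p = 1.1e-06). Tnc stood at 200.4, 282 and 288 CPM in Touchdome against 40.6, 56.9 and 54.0 CPM in HF (LFC 2.35 ± 0.45, adjusted p = 0.00701). In both genes the groups lay far apart, although HF cells held Tnc at a level that IFE did not reach (mean 4.79 CPM). Itga6, which encodes integrin α6, was at 806 to 988 CPM against 399 to 449.7 CPM, and Epcam did not pass the test (LFC -0.60, adjusted p = 0.0627). Krt17 and Gli1, known marks of touch dome keratinocytes in mouse skin, stood at 1526, 1883 and 1671 CPM and 51.98, 94.4 and 76.9 CPM in Touchdome against IFE means of 278 and 2.13 CPM (adjusted p = 2.33e-06 and 0.000208). Neither was called higher in Touchdome than in HF, as given below, so they do not set Touchdome apart from follicle cells. Over the 15046 genes tested, 196 (1.3%) were called in either direction between Touchdome and IFE, and 4972 (33%) between HF and IFE. On the other side Cd34, the surface mark of the mouse bulge, stood at 712, 792 and 895 CPM in HF.

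One Touchdome library stood nearer to HF than the others. Over all genes tested, the root mean square log2 distance to the HF mean was 1.2, 1.24 and 0.989 for Touchdome replicates 1 to 3, and the distance to the IFE mean was 0.7, 0.734 and 0.845. Touchdome replicate 3 was the Touchdome library closest to HF in 975 of the 1773 genes called higher and in 1270 of the 1930 genes called lower. Some counts of members are therefore given with and without it, and counts printed alone below can move too. Without Touchdome replicate 3, lower genes numbered 26 for matrix (22 with it), 25 for BMP and TGF-β (23) and 7 for Hedgehog (8). Higher axon guidance and neurotrophin genes numbered 10 (12 with it).

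Of 15046 genes tested among 55357 identifiers, 1773 (11.8%) were higher and 1930 (12.8%) were lower in Touchdome than in HF at an adjusted p under 0.05 (edgeR quasi-likelihood test, Benjamini-Hochberg over all genes tested), 24.6% in both directions together. A call means this threshold, and these shares are the background for each gene group. Differences between lists, or between groups of genes by role within a list, were not tested. At least 2-fold differences were called for 918 genes (6.1%) upward and 1156 genes (7.68%) downward, and at least 16-fold differences for 132 and 89 genes. The median log2 fold change over all genes tested rounded to 0. Without Touchdome replicate 3 the calls were 1654 higher, of which 1555 were shared, and 1848 lower, of which 1638 were shared.

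**Figure D1:**
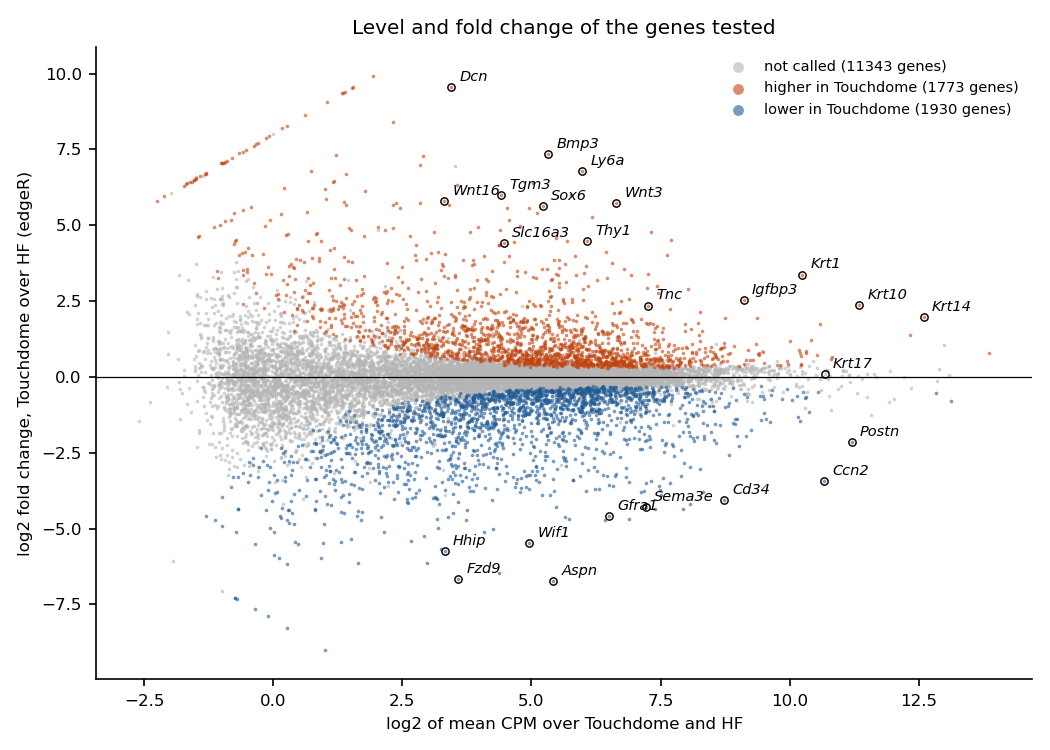
Each point is 1 of the 15046 genes tested, with the log2 of its mean CPM over the 6 libraries on the x axis and its fitted log2 fold change, Touchdome over HF, on the y axis. Orange points (1773 genes) are called higher, blue points (1930 genes) lower and grey points neither. Krt17 lies on the zero line among the abundant genes, and the narrow diagonal bands at the upper left are low genes with few or no counts in HF, whose fitted folds are no bounds.

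The most abundant genes with at least a 2-fold difference were keratins and surface proteins on the Touchdome side. Krt14, the basal keratin, stood at 11696, 8781 and 9127 CPM in Touchdome against 2738, 2598 and 2279 CPM in HF (LFC 1.96 ± 0.16, adjusted p = 3.28e-06). Fcgbp, an IgG Fc binding mucin-like protein, stood at 7529.6, 6740.5 and 8092 CPM against 3097, 3164 and 2396 CPM (LFC 1.37 ± 0.25, adjusted p = 0.00176), and Clca3a2, a chloride channel accessory protein, at 2300.3, 2526 and 2284 CPM against 723, 842 and 581 CPM (LFC 1.73 ± 0.17, adjusted p = 1.09e-05). In each of these genes all 3 Touchdome libraries lay above all 3 HF libraries, as in 21.2% of all genes tested. By TPM, which is scaled by transcript length and so can be compared between genes, Krt14 had 10829 ± 1545 in Touchdome and 2948 ± 304 in HF (mean ± SD, n = 3), while Fcgbp had 1886 ± 214 and 686 ± 85.3. On the HF side the most abundant were Postn, the matrix protein periostin, and Ccn2 and Ccn1, matricellular proteins that are targets of the YAP pathway. Postn stood at 784, 619 and 1179 CPM in Touchdome against 3671, 3475 and 4393 CPM in HF (LFC -2.16 ± 0.23, adjusted p = 3.91e-05). Ccn2 was at 146, 193 and 486 CPM in Touchdome against 2977, 2489.9 and 3463 CPM in HF (LFC -3.44 ± 0.46, adjusted p = 0.000934). In both, Touchdome replicate 3 was the highest of its group and still below every HF library. App, the amyloid precursor protein (LFC -1.14, adjusted p = 0.000225), the transcription factor Nfib (LFC -1.49, adjusted p = 0.000154), the taurine transporter Slc6a6 (LFC -1.20, adjusted p = 4.23e-05), the cytoskeletal linkers Macf1 (LFC -1.43, adjusted p = 0.00338) and Tns1 (LFC -1.75, adjusted p = 3.63e-05) and Ccn1 (LFC -1.34, adjusted p = 0.00331) were lower as well.

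The genes furthest above HF by fold were of several kinds. Il12rb2, a receptor subunit for interleukin-12, stood at 79.0, 159 and 81.4 CPM in Touchdome against 1.46, 2.63 and 1.18 CPM in HF (LFC 6.00 ± 0.42, adjusted p = 1.24e-05). Nat8l, the enzyme that makes N-acetylaspartate, stood at 46.5, 82.1 and 53.1 CPM in Touchdome against 1.37, 1.05 and 1.25 CPM in HF (LFC 5.58 ± 0.29, adjusted p = 1.7e-07). Mmp28, a matrix metalloproteinase of the skin, and Adamts14, a procollagen-processing protease, had 50.5 to 83.4 and 121 to 158 CPM against 1.37 to 1.92 and 1.48 to 4.78 CPM in HF. None of these 4 genes had an HF library above 5 CPM. Their IFE means were 164 CPM (Il12rb2), 56.2 CPM (Nat8l), 75.3 CPM (Mmp28) and 232 CPM (Adamts14), so their high level was shared with IFE. Dio2, the deiodinase that activates thyroid hormone, had 50.4, 47.6 and 37.6 CPM in Touchdome, 1.51, 0.843 and 0.328 CPM in HF with a mean of 22.3 CPM in IFE (LFC 5.56 ± 0.61, adjusted p = 0.000268). Kcne4, a regulatory subunit of potassium channels, was at 11.3, 19.0 and 12.0 CPM in Touchdome against 0.137, 0 and 0.590 CPM in HF (LFC 5.74 ± 0.64, adjusted p = 3.72e-05), and its IFE mean was 0.0126 CPM. Dcn, a small proteoglycan best known from fibroblasts, shared that pattern, with 23.8, 25.3 and 16.4 CPM in Touchdome and 853 counts in all against 1 count in HF, a ratio of 1023 with a 95% counting interval of 183 to 40462. The actin bundler Pls1 (LFC 5.73, adjusted p = 3.04e-06), the cytochrome Cyp2w1 (LFC 5.67, adjusted p = 2.13e-05), Apol7a (LFC 7.29, adjusted p = 1.31e-06) and the cornified envelope gene Sprr2a1 (LFC 6.32, adjusted p = 0.00145), which has near-identical copies, complete the upper end.

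The genes furthest below HF by fold were also of several kinds, and matrix, Wnt and Hedgehog genes among them are given with their lists. Adcy1, an adenylate cyclase best known from neurons, stood at 4.41, 5.63 and 16.8 CPM in Touchdome against 223, 214 and 250.4 CPM in HF (LFC -4.69 ± 0.50, adjusted p = 0.000317). Chat, which makes acetylcholine, stood at 0.575, 2.68 and 8.88 CPM in Touchdome against 99.5, 73.8 and 115 CPM in HF (LFC -4.61 ± 0.73, adjusted p = 0.00308). In both, the highest Touchdome library was replicate 3, and it stayed far under the lowest HF library. Grik1, a glutamate receptor subunit, had 0.249 to 0.703 CPM against 31.5 to 48.5 CPM, and the neuropeptide gene Cck had 0.268 to 0.448 CPM against 11.9 to 29.6 CPM. Adra2a, an adrenergic receptor (LFC -5.01, adjusted p = 4.57e-06), Kcnd3, a potassium channel (LFC -4.69, adjusted p = 0.000977), and Sorcs3, a sorting receptor (LFC -4.73, adjusted p = 0.00036), were lower too. Other genes at this end were Serpinb11 (LFC -4.67, adjusted p = 3.28e-05), the matrix gene Vit (LFC -5.41, adjusted p = 3.71e-05), the carboxylesterase Ces1d (LFC -5.25, adjusted p = 0.00324) and the acyl-CoA oxidase relative Acoxl (LFC -4.97, adjusted p = 0.00274). For Ces1d and Acoxl, HF replicate 1 was the lowest of its group, with 7.50, 21.6 and 15.1 CPM and 6.86, 22.9 and 23.5 CPM.

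By gene list, the follicle stem cell, sebaceous and Hedgehog lists held lower calls and no higher ones. The proliferation, interferon response and antigen presentation lists held higher calls and no lower ones, while the Wnt, growth factor and retinoid lists were split.

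**Figure D2:**
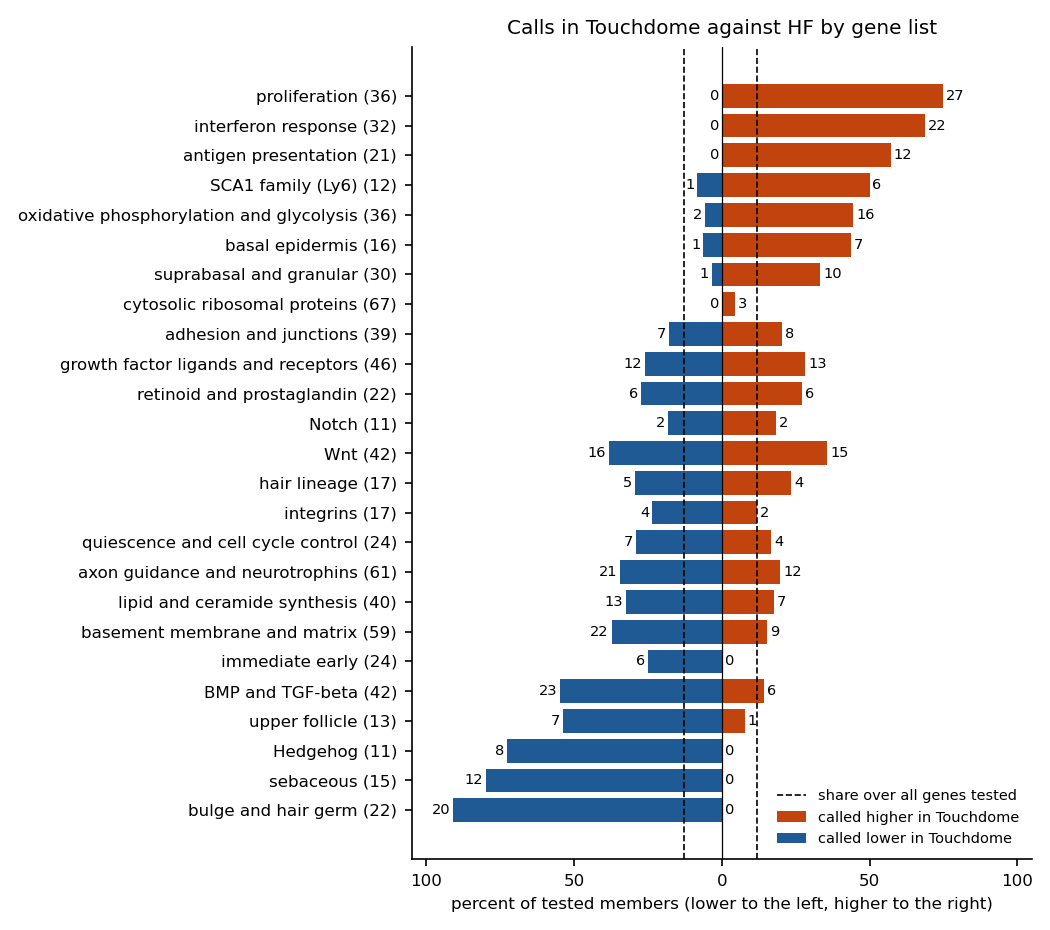
Bars give, for each gene list, the percent of its tested members (number in brackets) called lower to the left and higher to the right in Touchdome against HF, with the number of genes at the bar's end. The dashed lines mark the shares over all genes tested, 12.8% lower and 11.8% higher, and the bulge and hair germ list reaches 20 of 22 on the left. The SCA1 family bar includes Ly6a, on whose product the groups were sorted.

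Follicle stem cell genes were nearly all lower in Touchdome but not at 0. Of 22 bulge and hair germ genes, 20 were lower and 0 higher (19 lower without Touchdome replicate 3), with a median log2 fold change of -2.27. Lgr5, a receptor for R-spondins that marks the lower bulge and germ, stood at 12.5, 10.99 and 52.7 CPM in Touchdome against 301, 351 and 353 CPM in HF (LFC -3.72 ± 0.63, adjusted p = 0.00489). Lhx2, a transcription factor of the bulge, stood at 23.7, 29.6 and 77.3 CPM in Touchdome against 634, 607 and 553 CPM in HF (LFC -3.78 ± 0.43, adjusted p = 0.000411), and Cd34 at 20.1, 23.8 and 98.8 CPM in Touchdome (LFC -4.07 ± 0.65, adjusted p = 0.00357). In all 3 genes Touchdome replicate 3 held more than 2-fold the level of the other Touchdome libraries, and no Touchdome library came near HF. Sox9, which early bulge cells need, was at 98.7, 67.0 and 235 CPM in Touchdome against 572, 481 and 489.9 CPM in HF (LFC -1.95 ± 0.41, adjusted p = 0.00951). Nfatc1, which holds bulge cells at rest, stood at 95.3, 113 and 169 CPM in Touchdome against 537, 538 and 502 CPM in HF (LFC -2.06 ± 0.18, adjusted p = 4e-06). Tcf7l1, a Wnt pathway repressor, stood at 7.10, 7.87 and 11.8 CPM in Touchdome against 53.2, 46.5 and 39.3 CPM in HF (LFC -2.38 ± 0.33, adjusted p = 0.000363). Dkk3 (LFC -3.51, adjusted p = 0.00139), Tbx1 (LFC -3.50, adjusted p = 0.00415), Foxc1 (LFC -2.39, adjusted p = 0.0005), Fgf18 (LFC -3.30, adjusted p = 4.25e-05), Angptl7 (LFC -4.73, adjusted p = 0.000165) and Aspn (LFC -6.73, adjusted p = 0.000281) followed. Col17a1, a hemidesmosome collagen (LFC -0.13, adjusted p = 0.585), and Cdh3, P-cadherin (LFC 0.29, adjusted p = 0.087), were the list's members that did not pass. Krt15, a keratin of the bulge that basal epidermis also holds, differed little, at 5629, 6552 and 5712 CPM against 8926, 8996 and 8106 CPM (LFC -0.54 ± 0.16, adjusted p = 0.0262), and lost its call in 4 alternatives (0.127 without Touchdome replicate 1, 0.0781 without Touchdome replicate 3, 0.0832 without HF replicate 1, 0.08 without HF replicate 2). As percent of the HF mean, the median of the list was 16.7, 14.6 and 30.0 in the 3 Touchdome libraries, and replicate 3 was the highest of them for 19 of 22 genes. In bulk RNA a smaller number of cells of a type and less RNA in each cell cannot be told apart.

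**Figure D3:**
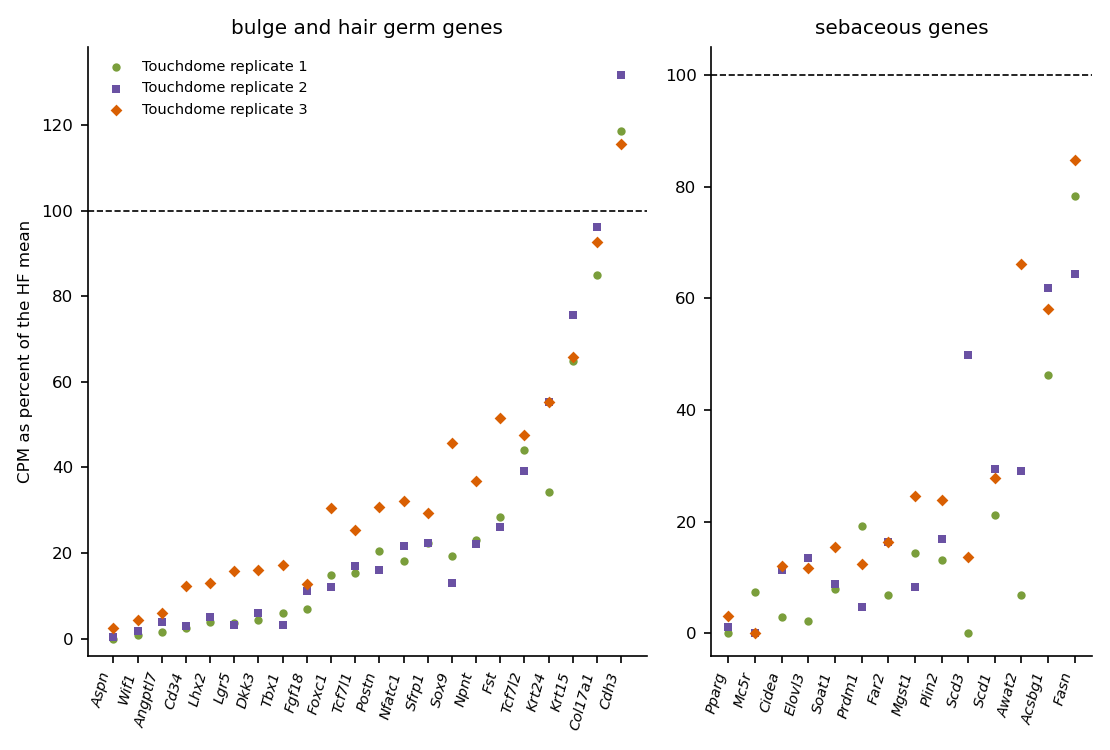
The y axis gives the CPM of each Touchdome library as percent of the HF mean for tested members of the bulge and hair germ list (left) and of the sebaceous list (right, 1 member not drawn), in order of fitted fold change, with a dashed line at 100. Diamonds mark replicate 3, which is the highest Touchdome library for 19 of the 22 genes on the left. In the sebaceous list replicate 3 is highest less uniformly, in 9 of all 15 genes tested, with replicate 2 highest in 4 and replicate 1 in 2.

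Sebaceous genes were lower as well, with 12 of 15 lower, 0 higher and a median of -2.66. Pparg, the master regulator of fat-storing cells, stood at 0, 0.179 and 0.498 CPM in Touchdome against 6.22, 25.3 and 15.2 CPM in HF (LFC -6.14 ± 0.86, adjusted p = 0.000424). Plin2, a coat protein of lipid droplets, stood at 21.3, 27.4 and 38.7 CPM in Touchdome against 107, 189.9 and 189 CPM in HF (LFC -2.48 ± 0.26, adjusted p = 8.22e-05). Soat1, which esterifies cholesterol, was at 3.005, 3.31 and 5.81 CPM in Touchdome against 24.7, 43.9 and 43.9 CPM in HF (LFC -3.22 ± 0.42, adjusted p = 0.000285). For these 3 genes HF replicate 1 was the lowest HF library and still above every Touchdome library. Mgst1 (LFC -2.66, adjusted p = 0.000302), Far2 (LFC -2.93, adjusted p = 0.000842), Cidea (LFC -3.52, adjusted p = 0.000633) and Scd1 (LFC -1.94, adjusted p = 0.00115) were lower, and Fasn did not pass (LFC -0.40, adjusted p = 0.235). The upper follicle list was mixed, with 7 lower and 1 higher of 13 tested and a median of -0.81. Its lower count went to 3 without Touchdome replicate 1 and to 4 without HF replicate 1 or HF replicate 2. Lgr6, an R-spondin receptor of the isthmus, stood at 154, 132 and 172 CPM in Touchdome against 351, 326 and 369 CPM in HF (LFC -1.19 ± 0.14, adjusted p = 4.56e-05). Fst, follistatin, was lower (LFC -1.502, adjusted p = 0.000635), and so was the protease inhibitor Cst6 (LFC -1.96, adjusted p = 0.00902), while the kallikrein Klk10 was higher (LFC 1.10, adjusted p = 0.00801). Krt79, a keratin of the follicle opening, stood at 485, 374 and 1013 CPM in Touchdome against 1744, 2258 and 1158 CPM in HF (LFC -1.46 ± 0.38, adjusted p = 0.0235), with adjusted p = 0.087 with no low-count filter, 0.079 with only Touchdome and HF libraries, 0.0754 without Touchdome replicate 1, 0.058 without IFE replicate 2, 0.0598 without HF replicate 1, 0.0703 without HF replicate 2. Krt17 differed by less than its spread, at 1526, 1883 and 1671 CPM against 1722, 1655 and 1373 CPM (LFC 0.10, adjusted p = 0.683), and Lrig1, a mark of the junctional zone, did not pass (LFC -0.78, adjusted p = 0.0748). Genes of hair shaft and root sheath lineages went both ways, with 4 higher and 5 lower of 17, and 3 lower without Touchdome replicate 1 or any 1 HF library. Hoxc13, a regulator of hair keratins, was at 1.47, 1.70 and 8.30 CPM against 27.3, 25.6 and 30.3 CPM (LFC -2.87, adjusted p = 0.00696), whereas Cux1 was at 140.1, 120.0 and 108 CPM against 42.0, 47.7 and 39.8 CPM (LFC 1.51, adjusted p = 4.74e-06).

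Genes of the basal and spinous layers were more often higher than lower in Touchdome, and granular genes were mostly not called. Among 11 spinous genes 7 were higher and 1 lower, with a median of 1.14. Among 19 granular and cornified envelope genes 3 were higher and 0 lower, with a median of 0.26. That higher count is near the 11.8% of all genes tested, and it was 2 without Touchdome replicate 1 or any 1 HF library. Spinous and granular genes together summed to 8738 to 11950 CPM in Touchdome, 6148 to 8457 CPM in IFE and 3339 to 3768 CPM in HF. Krt10, the suprabasal keratin, had 3736 to 5100.4 CPM in Touchdome against 776 to 999 CPM in HF (LFC 2.36, adjusted p = 1.86e-06), and Dsg1a, a desmosomal cadherin, stood at 1078, 1163 and 890.3 CPM in Touchdome against 255, 339 and 228 CPM in HF (LFC 1.93 ± 0.18, adjusted p = 9.93e-06). Krtdap (LFC 1.99, adjusted p = 0.0018), Grhl3, a regulator of barrier genes (LFC 1.08, adjusted p = 0.00305), and Krt77 (LFC 1.19, adjusted p = 0.00889) were higher as well. Calml3, a calmodulin relative, went the other way, at 33.7, 36.6 and 112 CPM in Touchdome against 436, 475 and 517 CPM in HF (LFC -2.97 ± 0.49, adjusted p = 0.00357). Casp14, a protease of cornification, stood at 27.8, 35.7 and 28.1 CPM in Touchdome against 6.31, 9.70 and 4.32 CPM in HF (LFC 2.20 ± 0.30, adjusted p = 0.000294), and Tgm3, a transglutaminase, at 35.2 to 51.5 CPM against 0.527 to 0.852 CPM. The major granular products did not pass, among them Lor (LFC 0.92, adjusted p = 0.672), Flg (LFC 0.76, adjusted p = 0.445) and Ivl (LFC -0.73, adjusted p = 0.128). Of 16 basal genes 7 were higher and 1, Egfr, was lower (LFC -0.82, adjusted p = 0.00118), with 4 higher when Touchdome replicate 1 or any 1 HF library was left out. Krt5 stood at 19459.8, 19972 and 17358 CPM in Touchdome against 11229.8, 11237 and 10705 CPM in HF (LFC 0.78 ± 0.14, adjusted p = 0.00124), a difference of less than 2-fold. Itgb4, the partner of integrin α6 in hemidesmosomes, did not differ beyond its spread (LFC 0.02, adjusted p = 0.933). The Ly6 family of SCA1, without Ly6a itself because the groups were sorted on its product, had 5 higher and 1 lower of 11 tested. The lower one, Lypd6, was not called without Touchdome replicates 1 or 2, IFE replicate 3 or HF replicates 1 or 3. Among the higher ones were Ly6c1 (LFC 5.56, adjusted p = 0.000132), Lypd6b (LFC 1.08, adjusted p = 0.000236) and Ly6d (LFC 0.95, adjusted p = 0.0015), and reads of near-identical members may be divided between them.

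Wnt signalling showed a split by role, with ligands higher and receptors lower in Touchdome. Of 11 Wnt ligand genes tested 9 were higher and 0 lower, with a median of 1.63. Of 10 Frizzled receptor genes 1 was higher and 8 were lower, with a median of -2.23. Both counts were the same without Touchdome replicate 3. Wnt3 stood at 189.8, 243 and 155 CPM in Touchdome against 4.57, 2.85 and 3.28 CPM in HF (LFC 5.74 ± 0.21, adjusted p = 1.49e-08). Wnt3a stood at 28.3, 41.9 and 20.9 CPM in Touchdome against 1.01, 1.26 and 0.721 CPM in HF (LFC 4.96 ± 0.31, adjusted p = 4.75e-07). Wnt16 stood at 16.7, 21.5 and 19.8 CPM in Touchdome against 0, 0.632 and 0.590 CPM in HF (LFC 5.81 ± 0.52, adjusted p = 1.9e-05). In all 3 ligands every Touchdome library lay above every HF library by more than 10-fold. The IFE means of Wnt3 and Wnt16 were 200 and 24.0 CPM, so the high level of these genes was shared with IFE. Wnt4 and Wnt10a were present on both sides, at 301, 274 and 268 CPM and 173, 193 and 161 CPM in Touchdome against 98.5, 83.6 and 93.9 CPM and 62.5, 50.2 and 40.9 CPM in HF. Wnt5a (LFC 3.18, adjusted p = 9.9e-06), Wnt6 (LFC 1.63, adjusted p = 0.000335) and Wnt7b (LFC 1.13, adjusted p = 0.000277) were higher, and Wnt7a and Wnt11 did not pass. By TPM the order in Touchdome was Wnt10a (126 ± 12.3), Wnt4 (114 ± 5.31), Wnt3 (111 ± 25.9) and Wnt7b (93.1 ± 19.2), neighbours that do not differ beyond their spread, and then Wnt6 (22.5 ± 1.04). Wls, which carries Wnt proteins to the cell surface, was higher (LFC 0.71, adjusted p = 0.000769).

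Among the receptors, Fzd7 stood at 54.5, 54.1 and 118 CPM in Touchdome against 393, 410.1 and 399 CPM in HF (LFC -2.41 ± 0.29, adjusted p = 0.000283). Fzd2 stood at 24.4, 25.7 and 51.7 CPM in Touchdome against 348, 317 and 360.3 CPM in HF (LFC -3.34 ± 0.31, adjusted p = 5.12e-05). Fzd3 was at 11.8, 11.3 and 20.7 CPM in Touchdome against 112, 142 and 109.8 CPM in HF (LFC -3.06 ± 0.23, adjusted p = 2.53e-06). The HF libraries were close to each other in these genes, and Touchdome replicate 3 was the highest of its group. Fzd1 (LFC -2.13, adjusted p = 1.28e-05), Fzd8 (LFC -1.71, adjusted p = 1.01e-05), Fzd5 (LFC -1.10, adjusted p = 0.000259), Fzd4 (LFC -2.34, adjusted p = 0.00818) and Fzd9 (LFC -6.66, adjusted p = 1.71e-05) were lower too. Fzd10 was the exception, at 77.6, 134 and 67.9 CPM in Touchdome against 7.86, 7.38 and 5.83 CPM in HF (LFC 3.72 ± 0.27, adjusted p = 3.85e-06), and Fzd6 did not pass (LFC 0.31, adjusted p = 0.0558). By TPM HF held most of Fzd2 (169 ± 10.3), Fzd7 (158 ± 3.44) and Fzd1 (102 ± 7.05), and Touchdome most of Fzd6 (58.2 ± 4.98) and Fzd10 (49.8 ± 19.6). Of the co-receptors Lrp4 was higher (LFC 1.76, adjusted p = 2.33e-05), Lrp6 and Ror2 were lower (LFC -0.76, adjusted p = 0.00732, and LFC -2.17, adjusted p = 0.000438), and Lrp5 did not pass (LFC -0.05, adjusted p = 0.83). The secreted antagonists Sfrp1, Wif1 and Dkk3 were lower, the first at 99.7, 100.2 and 131 CPM against 373, 485 and 481 CPM (LFC -2.02 ± 0.15, adjusted p = 1.31e-06) and Wif1 at 0.511, 1.07 and 2.57 CPM against 67.8, 50.8 and 62.9 CPM (LFC -5.49 ± 0.46, adjusted p = 1.82e-05). Of 9 feedback genes and effectors 3 were higher and 3 lower. Axin2, the usual readout of the canonical pathway, stood at 119, 178 and 120.4 CPM in Touchdome against 84.7, 98.7 and 85.5 CPM in HF (LFC 0.64 ± 0.15, adjusted p = 0.00845). Rnf43 and Znrf3, which remove Frizzled proteins from the surface, were higher as well (LFC 0.60, adjusted p = 0.00482, and LFC 0.64, adjusted p = 0.0134). All 3 missed the threshold in limma on log2(TPM + 1), with adjusted p = 0.115, 0.0603 and 0.116, and Znrf3 had 0.0573 without Touchdome replicate 2 or HF replicate 1. Nkd1, another feedback inhibitor, was lower (LFC -3.32, adjusted p = 1.54e-05), as were the nuclear factors Lef1 (LFC -4.01, adjusted p = 0.000203) and Tcf7 (LFC -0.74, adjusted p = 0.034), the last with adjusted p of 0.0575 to 0.132 without Touchdome replicates 1 or 2 or any 1 HF library.

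**Figure D4:**
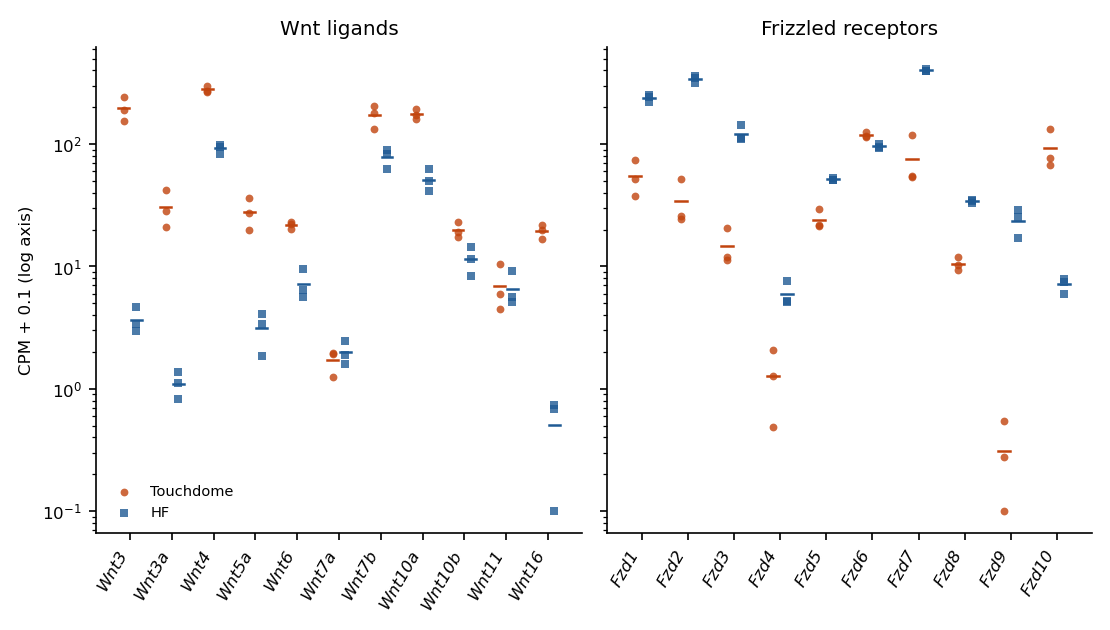
CPM plus 0.1 on a log axis for the Wnt ligand genes (left) and Frizzled receptor genes (right), with 1 point per library, circles for Touchdome, squares for HF and a bar at each mean. Ligand points of Touchdome lie above those of HF for 9 genes. Receptor points lie below for 8 genes and above for Fzd10 and for Fzd6, which was not called.

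BMP and TGF-β genes were mostly lower, with 23 lower and 6 higher of 42 tested and a median of -1.16. All 7 Id and Smad genes of the list, most of them direct BMP targets, were lower (7 also without Touchdome replicate 3). Id2 stood at 21.4, 25.1 and 48.4 CPM in Touchdome against 145, 131 and 152 CPM in HF (LFC -2.18 ± 0.26, adjusted p = 0.000179). Id4 stood at 14.7, 13.4 and 20.3 CPM in Touchdome against 65.4, 54.8 and 66.9 CPM in HF (LFC -1.95 ± 0.25, adjusted p = 0.000143). Smad6, an inhibitory Smad, stood at 3.26, 4.29 and 5.48 CPM in Touchdome against 21.9, 16.7 and 18.0 CPM in HF (LFC -2.12 ± 0.32, adjusted p = 0.000356). The groups did not overlap in any of the 7, against 22.2% of all genes tested. Smad7 (LFC -1.28, adjusted p = 0.00074), Smad9 (LFC -3.76, adjusted p = 0.000239), Id3 (LFC -1.25, adjusted p = 0.0052) and Id1 (LFC -1.72, adjusted p = 0.0188) made up the rest, and Id1 lost its call in 3 alternatives (adjusted p = 0.0663 with no low-count filter, 0.0715 without Touchdome replicate 1, 0.0534 without HF replicate 3). The ligands were divided, since Bmp3 (LFC 7.34, adjusted p = 1.37e-06) and Bmp4 (LFC 5.18, adjusted p = 1.3e-06) were higher and Bmp6 was lower, at 0.575, 0.894 and 0.996 CPM against 13.4, 12.1 and 12.4 CPM (LFC -3.95, adjusted p = 0.000203). Bmpr1b, a type I receptor, was at 7.74, 4.56 and 3.24 CPM against 0, 0.422 and 0 CPM (LFC 5.67, adjusted p = 0.00116), while Bmpr1a did not pass (LFC -0.32, adjusted p = 0.0578). Of 8 antagonist genes 5 were lower and 0 higher. Grem1, gremlin, stood at 10.5, 10.9 and 47.2 CPM in Touchdome against 448, 500.2 and 460.2 CPM in HF (LFC -4.36 ± 0.61, adjusted p = 0.0018), and Nog, noggin, at 4.22, 2.50 and 5.40 CPM against 50.7, 47.6 and 56.1 CPM (LFC -3.66 ± 0.39, adjusted p = 8.99e-05).

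The TGF-β ligands and latent binders followed, with 6 of 10 lower. Tgfb2, a signal of the hair germ and dermal papilla, stood at 10.8, 10.6 and 13.9 CPM in Touchdome against 52.3, 50.7 and 51.8 CPM in HF (LFC -2.13 ± 0.17, adjusted p = 2.43e-06), and Tgfb3 was lower (LFC -2.50, adjusted p = 0.000102). Ltbp1 and Ltbp2 belong to the family named latent TGF-β binding proteins. Ltbp1 stood at 17.2, 22.3 and 27.8 CPM in Touchdome against 104.9, 91.6 and 148 CPM in HF (LFC -2.36, adjusted p = 9.09e-06). Ltbp2 stood at 20.2, 11.3 and 52.6 CPM in Touchdome against 516, 464 and 554 CPM in HF (LFC -4.19, adjusted p = 0.000955). Tgfbr1 and Tgfbr2, the receptor pair, had log2 fold changes of -0.61 and 0.57. In the Hedgehog list 8 of 11 tested genes were lower and 0 higher, with a median of -0.94, and no Hedgehog ligand gene was tested. Gas1 and Boc, co-receptors for Hedgehog proteins, stood at 193, 187 and 193 CPM and 77.1, 91.8 and 152 CPM against 602, 514 and 566 CPM and 399.6, 337 and 404 CPM (LFC -1.55 ± 0.11, adjusted p = 8.17e-07, and LFC -1.83 ± 0.25, adjusted p = 0.000446). Gli2, a transcription factor of the pathway, stood at 34.1, 51.7 and 46.9 CPM in Touchdome against 119.8, 135 and 143 CPM in HF (LFC -1.59 ± 0.16, adjusted p = 1.9e-05). The Hedgehog-binding inhibitor Hhip was at 0.179 to 0.581 CPM against 16.9 to 22.4 CPM (LFC -5.74, adjusted p = 1.85e-06). Ptch1, receptor and target of the pathway, stood at 47.2, 52.4 and 53.1 CPM in Touchdome against 71.8, 80.2 and 128 CPM in HF (LFC -0.88 ± 0.19, adjusted p = 0.00387). Gli1, also a target, stood at 51.98, 94.4 and 76.9 CPM against 145, 98.2 and 197 CPM (LFC -0.98 ± 0.30, adjusted p = 0.0381), and it lost its call in 8 alternatives, with adjusted p up to 0.141. Of 11 Notch genes 2 were higher, the ligand Dll1 (LFC 0.92, adjusted p = 4.74e-05) and the modifier Rfng (LFC 0.65, adjusted p = 0.000791), and 2 were lower, the ligand Jag1 (LFC -0.66, adjusted p = 0.00375) and the nuclear effector Rbpj (LFC -0.63, adjusted p = 0.00116).

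Growth factor genes differed in both directions, with 13 higher and 12 lower of 46 tested. Fibroblast growth factor receptors differed in direction, since Fgfr1 stood at 124, 156 and 251 CPM in Touchdome against 890.1, 747 and 944 CPM in HF (LFC -2.28 ± 0.23, adjusted p = 3.63e-05), Fgfr2 at 565, 592 and 547 CPM in Touchdome against 261, 278 and 317 CPM in HF (LFC 0.99 ± 0.12, adjusted p = 7.73e-05) and Fgfr3 at 407, 469 and 389 CPM in Touchdome against 276, 229.5 and 269.9 CPM in HF (LFC 0.71 ± 0.13, adjusted p = 0.00176). By TPM Fgfr2 had 369 ± 14.2 in Touchdome and 190.4 ± 29.3 in HF, while Fgfr1 had 112 ± 44.2 and 532 ± 56.2. The ligand Fgf1 was lower (LFC -3.26, adjusted p = 0.00189), and Fgf18, a ligand that keeps follicles at rest, was at 1.66, 2.68 and 3.07 CPM against 22.4, 36.1 and 14.1 CPM. Insulin-like growth factor binding proteins were unequal as well. Igfbp3 stood at 1025, 976 and 828 CPM in Touchdome against 155, 146 and 183 CPM in HF (LFC 2.54 ± 0.14, adjusted p = 1.32e-07), whereas Igfbp5 stood at 25.8, 20.8 and 29.2 CPM in Touchdome against 122, 84.3 and 229 CPM in HF (LFC -2.52 ± 0.46, adjusted p = 0.00516) and Igfbp4 at 83.5, 86.3 and 159 CPM in Touchdome against 394, 469 and 419 CPM in HF (LFC -1.96 ± 0.28, adjusted p = 0.000769). Igfbp6 (LFC -3.86, adjusted p = 0.000791) and Igfbp7 (LFC -0.78, adjusted p = 0.00372) were lower too, and Igf1r did not pass (LFC -0.07, adjusted p = 0.796). In the EGF family the ligand Epgn was higher, at 101, 54.3 and 56.9 CPM in Touchdome against 12.0, 5.06 and 12.4 CPM in HF (LFC 2.82 ± 0.43, adjusted p = 0.00197), and Erbb3 was higher (LFC 0.57, adjusted p = 0.00623), while Egfr was lower. Of 9 interleukin genes and receptors 4 were higher and 0 lower. Il33, an alarm cytokine of barrier cells, stood at 231, 206 and 146 CPM in Touchdome against 51.2, 71.9 and 37.9 CPM in HF (LFC 1.86 ± 0.23, adjusted p = 0.000181). Il1r2, a decoy receptor for interleukin-1, was at 93.5, 103 and 60.5 CPM in Touchdome against 5.35, 3.58 and 1.57 CPM in HF (LFC 4.57 ± 0.39, adjusted p = 4.74e-05). Il4ra, the receptor for interleukins 4 and 13, stood at 169, 156 and 154 CPM in Touchdome against 65.9, 52.2 and 42.7 CPM in HF (LFC 1.57 ± 0.17, adjusted p = 2.1e-05), and Il20ra, a receptor subunit for the interleukin-20 family, had 76.3, 73.3 and 43.2 CPM against 0.594, 0.948 and 0.852 CPM.

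Genes of mitosis were higher in Touchdome, and those of DNA replication less uniformly so. All 20 mitosis genes were higher (20 also without Touchdome replicate 3), with log2 fold changes of 1.48 to 2.35 and a median of 1.73. Of 16 DNA replication genes 7 were higher and 0 lower, with a median of 0.49, and 4 were higher without Touchdome replicate 3 or without HF replicate 2. Ccnb2, a cyclin of mitosis, had 38.6 to 44.1 CPM against 9.31 to 11.1 CPM (LFC 2.05, adjusted p = 4.4e-07). Cdk1, the kinase it activates, stood at 53.7, 42.7 and 40.6 CPM in Touchdome against 10.6, 12.5 and 12.5 CPM in HF (LFC 1.95 ± 0.16, adjusted p = 2.53e-06). Cdc20, which starts the exit from mitosis, stood at 98.5, 81.4 and 71.2 CPM in Touchdome against 24.1, 22.2 and 19.9 CPM in HF (LFC 1.92 ± 0.14, adjusted p = 1.37e-06). Ube2c, an enzyme of the same step, stood at 76.5, 61.3 and 44.8 CPM in Touchdome against 15.4, 10.1 and 9.90 CPM in HF (LFC 2.35 ± 0.24, adjusted p = 2.85e-05). In each, the lowest Touchdome library held more than 2-fold the highest HF library. Bub1b (LFC 1.73, adjusted p = 1.31e-06) and Cenpa (LFC 1.90, adjusted p = 1.64e-06), of the spindle checkpoint and the centromere, and Mki67 (LFC 1.52, adjusted p = 0.00702) were higher. Mcm4 and Pcna, both of the replication fork, did not pass (LFC -0.01, adjusted p = 0.979, and LFC 0.24, adjusted p = 0.137), while Rrm1, which makes deoxynucleotides, did (LFC 0.82, adjusted p = 0.000366). Among inhibitors and brakes of the cycle, 4 of 24 were higher and 7 lower, and the lower count was 4 without either of Touchdome replicates 1 and 2, HF replicate 1 or HF replicate 3. Cdkn2c and Cdkn2d were higher (LFC 1.25, adjusted p = 0.000429, and LFC 0.74, adjusted p = 0.00257). Foxp1, which keeps bulge cells at rest, stood at 54.1, 60.4 and 85.3 CPM in Touchdome against 209, 233 and 191 CPM in HF (LFC -1.66 ± 0.17, adjusted p = 2.08e-05). Foxo3 was lower (LFC -0.98, adjusted p = 0.000588), as was Cdkn1c (LFC -2.08, adjusted p = 0.00387), while Cdkn1a did not pass (LFC 0.18, adjusted p = 0.26).

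Promoter sequences were read for the mitosis genes because all 20 were called in the same direction, from RefSeq (build GRCm38.p6), over 250 bases before the annotated start. Of the 20 genes, 16 had an entry. The cell cycle homology region core TTTGAA was present on either strand in 7 of these 16 (43.8%), in 1 of 13 replication genes (7.69%) and in 1382 of 10698 tested genes with an entry (12.9%). CCAAT was present in 15 of 16 (93.8%), in 9 of 13 replication genes (69.2%) and in 4305 of 10698 tested genes (40.2%). The list was drawn up from known mitosis genes, so the shares are properties of the list and not of this comparison. A match describes letters in the window and is not a shown binding site. The promoters of 4 of the genes follow, 5′ to 3′ on the strand of the gene, with TTTGAA or its complement in capitals, whose first base lies 167 (Ccnb2), 18 (Cdc20), 71 and 15 (Cdk1) and 29 (Ube2c) bases before the start. Ccnb2 is at chr9:70421555-70421804 (minus strand), Cdc20 at chr4:118437344-118437593 (minus), Cdk1 at chr10:69352913-69353162 (minus) and Ube2c at chr2:164769679-164769928 (plus).
Ccnb2: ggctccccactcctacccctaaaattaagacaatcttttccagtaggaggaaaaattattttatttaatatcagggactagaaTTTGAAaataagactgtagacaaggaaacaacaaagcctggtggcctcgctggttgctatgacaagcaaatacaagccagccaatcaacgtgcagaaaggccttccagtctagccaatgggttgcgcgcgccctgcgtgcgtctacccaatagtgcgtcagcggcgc
Cdc20: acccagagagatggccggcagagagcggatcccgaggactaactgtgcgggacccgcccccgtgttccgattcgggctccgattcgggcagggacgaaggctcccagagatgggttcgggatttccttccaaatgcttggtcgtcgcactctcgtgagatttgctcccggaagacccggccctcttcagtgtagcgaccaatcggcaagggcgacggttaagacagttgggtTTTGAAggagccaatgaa
Cdk1: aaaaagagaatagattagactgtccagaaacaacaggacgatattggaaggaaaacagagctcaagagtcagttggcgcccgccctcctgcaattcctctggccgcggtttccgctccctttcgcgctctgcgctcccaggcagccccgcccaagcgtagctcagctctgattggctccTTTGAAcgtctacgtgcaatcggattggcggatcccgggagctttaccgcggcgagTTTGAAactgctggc
Ube2c: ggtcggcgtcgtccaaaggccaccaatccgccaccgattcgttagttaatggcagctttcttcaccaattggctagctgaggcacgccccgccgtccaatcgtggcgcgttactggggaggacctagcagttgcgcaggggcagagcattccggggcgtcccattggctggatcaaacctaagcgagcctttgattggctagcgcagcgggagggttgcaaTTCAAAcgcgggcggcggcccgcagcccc

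Interferon response genes were higher in Touchdome, with 22 of 32 higher and 0 lower (18 higher without Touchdome replicate 3) and a median of 1.34. As percent of the HF mean the median member stood at 288, 181 and 279 in the 3 Touchdome libraries. The whole list summed to 856 to 1067 CPM in Touchdome, 732 to 936 CPM in IFE and 502.5 to 552 CPM in HF, so IFE also lay above HF. Gbp2, a guanylate-binding protein, stood at 64.8, 62.9 and 75.6 CPM in Touchdome against 11.7, 15.2 and 9.50 CPM in HF (LFC 2.49 ± 0.20, adjusted p = 2.22e-06). Stat2, a transcription factor of the type I interferon response, was at 89.4, 75.9 and 85.5 CPM in Touchdome against 48.7, 37.4 and 40.6 CPM in HF (LFC 0.98 ± 0.15, adjusted p = 0.000373). Both genes were even across the Touchdome libraries. Oas3 and Oas1a, sensors of double-stranded RNA, stood at 15.9, 8.76 and 13.5 CPM in Touchdome against 1.10, 1.26 and 0.328 CPM in HF (LFC 3.84 ± 0.60, adjusted p = 0.000712) and at 14.4, 8.04 and 18.3 CPM in Touchdome against 2.92, 1.79 and 0.852 CPM in HF (LFC 2.84 ± 0.42, adjusted p = 0.000373), with Touchdome replicate 2 the lowest of its group in both. Ifi27l2a (LFC 2.84, adjusted p = 0.000195), Parp9 (LFC 1.03, adjusted p = 0.000168), Usp18 (LFC 1.53, adjusted p = 0.000692) and Irf7 (LFC 1.12, adjusted p = 0.0134) were higher, the last with adjusted p = 0.0517 without Touchdome replicate 3 and 0.0569 without HF replicate 2. Trim30a was low, with 29 counts in Touchdome and 0 in HF. Isg15 and Ifit1, which often lead an acute response, did not pass (LFC 1.33, adjusted p = 0.125, and LFC 1.35, adjusted p = 0.121), nor did Irf1 (LFC -0.06, adjusted p = 0.891).

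Antigen presentation genes were higher in the class I pathway. Of 14 class I pathway genes 12 were higher and 0 lower, with a median of 0.82 (10 without Touchdome replicate 3), and of 7 class II genes 0 were called in either direction. Both classes together summed to 6886 to 7947 CPM in Touchdome, 6869 to 9710 CPM in IFE and 4273 to 4816 CPM in HF, so IFE also lay above HF. Psmb8 and Psmb9, subunits of the immunoproteasome, stood at 160.3, 135 and 149 CPM in Touchdome against 65.6, 62.4 and 49.1 CPM in HF (LFC 1.33 ± 0.13, adjusted p = 1.61e-05) and at 82.4, 62.4 and 77.9 CPM in Touchdome against 31.4, 32.5 and 31.9 CPM in HF (LFC 1.22 ± 0.13, adjusted p = 2.97e-05). Tap1, which pumps peptides into the endoplasmic reticulum, stood at 348, 336 and 335 CPM in Touchdome against 193, 157 and 161 CPM in HF (LFC 1.00 ± 0.12, adjusted p = 5.24e-05). Nlrc5, the transactivator of class I genes, stood at 267, 262 and 265 CPM in Touchdome against 127, 120.5 and 87.2 CPM in HF (LFC 1.24 ± 0.17, adjusted p = 0.000146). B2m, the light chain, stood at 1517, 1633 and 1670.5 CPM in Touchdome against 966, 898 and 929 CPM in HF (LFC 0.79 ± 0.15, adjusted p = 0.0019). No Touchdome library overlapped an HF library in these 5 genes. That held upward for 13 of the 14 class I pathway genes, against 21.2% of all genes tested. Class I heavy chain genes such as H2-D1 (LFC 0.71, adjusted p = 0.000861) are near-identical, so their reads may be divided. For class II, Cd74 stood at 100.2, 82.1 and 191 CPM in Touchdome against 237, 222 and 40.6 CPM in HF, where replicate 3 was far below its group, and Cd207, which marks Langerhans cells, was at 21.4, 21.8 and 0.852 CPM in the same libraries. Their part in the class II values was not tested.

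Promoters of the interferon genes were read in the same way, with 21 of the 32 tested genes having an entry. The interferon-stimulated response element (GAAA, any 2 bases, then GAAA) was found on either strand in 11 of 21 (52.4%) and in 333 of 10698 tested genes (3.11%). It was found in 3 of 16 antigen presentation genes (18.8%), B2m, H2-T22 and H2-T23. The list was drawn up from known interferon targets, so the share is a property of the list and not of this comparison. The promoters of 4 genes that were higher follow, with the element in capitals. Its first base lies 59 (Gbp2), 75 (Oas3), 20 and 14 (Oas1a, overlapping matches) and 222 (Stat2) bases before the start. Gbp2 is at chr3:142620413-142620662 (plus), Oas3 at chr5:120777660-120777909 (minus), Oas1a at chr5:120907526-120907775 (minus) and Stat2 at chr10:128270248-128270497 (plus).
Gbp2: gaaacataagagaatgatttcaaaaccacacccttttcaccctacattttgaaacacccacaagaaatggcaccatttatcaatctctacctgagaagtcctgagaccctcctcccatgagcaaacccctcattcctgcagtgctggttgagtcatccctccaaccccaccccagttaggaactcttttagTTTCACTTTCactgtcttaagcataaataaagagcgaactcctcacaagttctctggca
Oas3: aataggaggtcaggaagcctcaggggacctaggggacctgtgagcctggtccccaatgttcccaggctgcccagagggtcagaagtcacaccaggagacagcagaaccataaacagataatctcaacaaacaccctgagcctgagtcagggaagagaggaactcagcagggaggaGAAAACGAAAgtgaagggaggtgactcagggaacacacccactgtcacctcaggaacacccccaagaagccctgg
Oas1a: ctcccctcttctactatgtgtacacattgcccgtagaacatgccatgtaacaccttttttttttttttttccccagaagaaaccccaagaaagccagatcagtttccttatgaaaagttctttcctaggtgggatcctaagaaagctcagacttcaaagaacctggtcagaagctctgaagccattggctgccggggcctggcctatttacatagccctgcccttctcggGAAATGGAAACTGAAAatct
Stat2: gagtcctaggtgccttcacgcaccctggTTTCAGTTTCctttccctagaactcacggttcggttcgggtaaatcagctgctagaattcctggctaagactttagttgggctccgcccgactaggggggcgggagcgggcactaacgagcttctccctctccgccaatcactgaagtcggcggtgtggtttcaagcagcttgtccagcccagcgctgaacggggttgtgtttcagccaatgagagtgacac

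**Figure D5:**
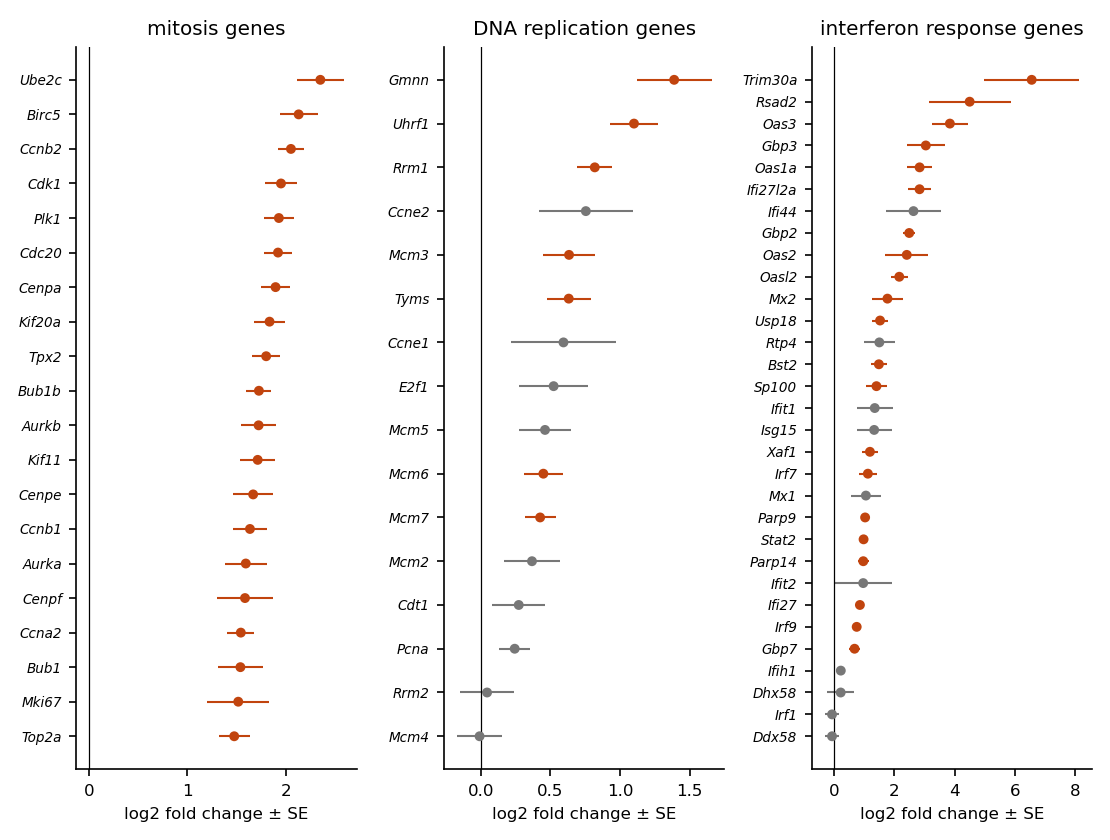
Fitted log2 fold change of Touchdome over HF with its standard error for mitosis genes (left), DNA replication genes (middle) and interferon response genes (right, 1 member not drawn), in orange where called higher and grey where not called. All 20 mitosis genes lie between 1.48 and 2.35, and the scales of the x axes differ between panels. The value drawn for Trim30a is a fit against 0 counts in HF and no bound.

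Immediate early genes, which cells switch on quickly under stress or stimulation, were lower in Touchdome where they differed, with 6 of 24 lower and 0 higher and a median of -0.65. The lower count was 14 without Touchdome replicate 3 and 3 without HF replicate 1. Touchdome replicate 3 was the highest Touchdome library for 22 of the 24 genes. Maff, a small leucine zipper factor, stood at 25.7, 14.9 and 34.8 CPM in Touchdome against 59.0, 57.1 and 78.0 CPM in HF (LFC -1.36 ± 0.26, adjusted p = 0.00257). Ier3 stood at 57.3, 33.3 and 94.7 CPM in Touchdome against 204, 156 and 226 CPM in HF (LFC -1.66 ± 0.37, adjusted p = 0.0127), and Nr4a2 (LFC -1.02, adjusted p = 0.00534) and Dusp2 (LFC -1.91, adjusted p = 0.0176) were lower, the last with adjusted p = 0.0872 without HF replicate 1. Fos and Egr1 did not pass (LFC -0.36, adjusted p = 0.335, and LFC -0.82, adjusted p = 0.0526). Btg2, an antiproliferative gene of the same kind, stood at 398, 217 and 619 CPM against 1097, 909 and 1219 CPM (LFC -1.39 ± 0.42, adjusted p = 0.0437) and lost its call in 8 alternatives, with adjusted p up to 0.13.

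Matrix genes were more often lower than higher, with 22 lower and 9 higher of 59 tested and a median of -0.64. Among type IV collagens, the network of the basement membrane, 4 of 6 were lower and 1 was higher. Col4a4 stood at 1.47, 0.358 and 0.913 CPM in Touchdome against 34.8, 30.3 and 33.8 CPM in HF (LFC -5.10 ± 0.38, adjusted p = 1.31e-06), and its chain partner Col4a3 at 0.575, 1.97 and 0.415 CPM in Touchdome against 16.7, 14.9 and 21.0 CPM in HF (LFC -4.18 ± 0.55, adjusted p = 0.000171). Col4a1 and Col4a2, the chains found in every basement membrane, were lower by less (LFC -1.04, adjusted p = 0.00998, and LFC -1.26, adjusted p = 0.00182). Col4a6 was the higher one (LFC 0.79, adjusted p = 0.000489). Of 11 laminin genes 2 were higher and 2 lower, with 1 higher without any 1 Touchdome library, IFE replicates 1 or 3 or HF replicates 1 or 2. Lama1, a chain of embryonic basement membranes, stood at 59.3, 61.7 and 38.7 CPM in Touchdome against 1.83, 1.37 and 1.70 CPM in HF (LFC 4.99 ± 0.30, adjusted p = 5.36e-07), while Lama4 (LFC -1.93, adjusted p = 0.005) and Lamb1 (LFC -1.52, adjusted p = 0.000132) were lower. Lama3 and Lamb3, chains of the epidermal laminin, did not pass (LFC 0.41, adjusted p = 0.178, and LFC -0.34, adjusted p = 0.0534). Col16a1 stood at 345, 334 and 334 CPM in Touchdome against 75.4, 59.4 and 78.3 CPM in HF (LFC 2.25 ± 0.20, adjusted p = 1.06e-05). Tnxb, tenascin-X, was at 596, 473 and 426 CPM in Touchdome against 145, 123 and 74.6 CPM in HF (LFC 2.13 ± 0.35, adjusted p = 0.00212). Col6a1 and Col6a2 were lower (LFC -2.83, adjusted p = 0.00144, and LFC -3.28, adjusted p = 0.00959), at 36.2, 39.2 and 109 CPM and 9.40, 5.45 and 35.0 CPM in Touchdome, highest in replicate 3. Sparc (LFC -2.27, adjusted p = 0.0003), Fbln1 (LFC -2.63, adjusted p = 0.000669) and Egfl6, a protein that nerve endings of the upper bulge attach to (LFC -3.41, adjusted p = 1.7e-05), were lower.

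Integrin and junction genes were called in both directions, 6 of 17 and 15 of 39 in all against 24.6% of all genes tested. Of the integrin genes 2 were higher and 4 lower, with 1 higher without Touchdome replicates 1 or 2 or any 1 HF library. Itga4 and Itga1, partners of integrin β1 for fibronectin and collagen, stood at 2.05, 0.626 and 1.99 CPM and 4.60, 6.88 and 7.56 CPM against 16.7, 19.5 and 16.6 CPM and 33.0, 40.9 and 24.2 CPM (LFC -3.47, adjusted p = 0.000251, and LFC -2.37, adjusted p = 0.000125), and Itga5 was lower by less (LFC -1.01, adjusted p = 0.00319). Itgb1 did not pass (LFC -0.15, adjusted p = 0.395). In the junction list 8 were higher and 7 lower of 39, and the lower count was 3 or 4 without any 1 Touchdome library or without HF replicate 2. Cdh4, R-cadherin, stood at 47.1, 49.9 and 47.2 CPM in Touchdome against 1.78, 3.27 and 1.83 CPM in HF (LFC 4.46 ± 0.19, adjusted p = 2.49e-08). Its HF libraries were all under 4 CPM. Gja1, connexin 43, stood at 441, 357 and 321 CPM in Touchdome against 102, 126 and 167 CPM in HF (LFC 1.502 ± 0.19, adjusted p = 0.000102), and the desmosomal genes Dsg2 (LFC 1.23, adjusted p = 3.63e-05) and Pkp1 (LFC 1.21, adjusted p = 0.000156) were higher. Cdh1, E-cadherin, did not pass (LFC 0.06, adjusted p = 0.782).

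Axon guidance and neurotrophin genes had 12 higher and 21 lower of 61 tested, often with opposite directions inside a family. Ntrk2, the receptor for Bdnf, stood at 170.4, 204 and 173 CPM in Touchdome against 38.7, 32.8 and 24.4 CPM in HF (LFC 2.51 ± 0.18, adjusted p = 9.3e-07), and its ligand Bdnf at 0.511, 0.268 and 1.66 CPM in Touchdome against 20.7, 17.4 and 22.2 CPM in HF (LFC -4.63 ± 0.55, adjusted p = 8.31e-05). Ngfr, the shared low-affinity neurotrophin receptor, was higher (LFC 1.44, adjusted p = 0.00015), and Sort1, its partner, was lower (LFC -1.07, adjusted p = 0.000167). Gdnf stood at 31.1, 32.4 and 22.7 CPM in Touchdome against 8.82, 10.2 and 9.24 CPM in HF (LFC 1.61 ± 0.16, adjusted p = 1.37e-05), and its receptor Gfra1 at 5.88, 4.02 and 11.9 CPM in Touchdome against 172, 140.5 and 210.1 CPM in HF (LFC -4.59 ± 0.49, adjusted p = 0.000326). Gfra2 stood at 4.35, 3.22 and 3.65 CPM in Touchdome against 36.6, 46.4 and 39.9 CPM in HF (LFC -3.44 ± 0.25, adjusted p = 1.33e-06), and Nrtn, the ligand that binds it, was lower too (LFC -3.02, adjusted p = 3.8e-05). So the receptor was high and the ligand low for Bdnf, and the reverse was measured for Gdnf. Robo1 and Robo2, receptors for Slit proteins, were also opposed, at 181, 142 and 153 CPM in Touchdome against 10.3, 19.8 and 19.99 CPM in HF (LFC 3.27 ± 0.35, adjusted p = 0.000218) and at 13.4, 12.5 and 12.95 CPM in Touchdome against 83.4, 79.0 and 94.6 CPM in HF (LFC -2.73 ± 0.16, adjusted p = 2.46e-07). Slit1 was higher (LFC 3.13, adjusted p = 5.39e-05) and Slit3 lower (LFC -2.03, adjusted p = 0.00677). Among semaphorins 6 of 14 were higher and 4 lower. Sema3f stood at 268, 311 and 221 CPM in Touchdome against 41.8, 31.2 and 31.5 CPM in HF (LFC 2.93 ± 0.16, adjusted p = 1.32e-07), and Sema3d was higher (LFC 3.56, adjusted p = 3.97e-06), whereas Sema3e stood at 8.44, 12.6 and 22.7 CPM in Touchdome against 262, 257 and 329.8 CPM in HF (LFC -4.29 ± 0.36, adjusted p = 4.03e-05). The neuropilin and plexin receptors Nrp1 (LFC -2.65, adjusted p = 0.0101) and Plxna2 (LFC -1.98, adjusted p = 2.25e-05) were lower. Of 7 ephrin genes 5 were lower and 0 higher, led by Efnb2 (LFC -1.94, adjusted p = 0.000251), with 3 lower without Touchdome replicate 1, while 1 of 9 Eph receptor genes, Ephb4, was lower (LFC -0.63, adjusted p = 0.00384).

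Energy genes were higher in glycolysis and mostly uncalled in the respiratory chain. Of 18 genes for glucose and lactate 13 were higher and 2 lower, with a median of 0.81, and 1 was lower without Touchdome replicates 1 or 2, IFE replicate 3 or any 1 HF library. Of 18 respiratory chain genes 3 were higher and 0 lower, with a median of 0.06, and leaving out 1 Touchdome or 1 HF library left 0 or 1 of them. Both groups of genes together summed to 8213 to 9854 CPM in Touchdome, 9098 to 9500 CPM in IFE and 6308 to 6616 CPM in HF. Slc16a3, a transporter that exports lactate, stood at 56.3, 37.5 and 32.7 CPM in Touchdome against 2.24, 1.79 and 1.83 CPM in HF (LFC 4.40 ± 0.25, adjusted p = 1.73e-07). Pgk1 and Eno1, enzymes of the later steps of glycolysis, stood at 267, 196 and 241 CPM and 489, 383 and 405 CPM against 99.0, 89.9 and 107 CPM and 191, 190.1 and 177 CPM (LFC 1.25 ± 0.13, adjusted p = 2.25e-05, and LFC 1.19 ± 0.12, adjusted p = 1.37e-05). In each, the Touchdome libraries lay above the HF libraries, as in 21.2% of all genes tested. Pfkl (LFC 1.40, adjusted p = 8.11e-05), Ldha (LFC 0.81, adjusted p = 0.000453) and the glucose transporter Slc2a1 (LFC 0.83, adjusted p = 0.000446) were higher, and Ldhb, the lactate dehydrogenase chain of oxidative tissue, was lower, at 25.0, 26.9 and 35.9 CPM against 70.1, 83.0 and 85.2 CPM (LFC -1.44, adjusted p = 0.000109). Hk2 did not pass (LFC -1.20, adjusted p = 0.063). Of 67 cytosolic ribosomal protein genes 3 were higher and 0 lower, with a median of 0.26. Rplp0 was one (LFC 0.65, adjusted p = 0.00352), and the others, Rps26 and Rplp1, lost their calls in 6 and 8 alternatives with adjusted p up to 0.13 and 0.157. The count was 1 without Touchdome replicates 1 or 2 or HF replicates 1 or 2, 8 without IFE replicate 1, 21 without IFE replicate 2 and 19 in a fit of the 6 libraries alone.

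Lipid genes were called in both directions. For fatty acid synthesis 6 of 13 were lower and 1 was higher (median -1.43), and for sterol synthesis 4 of 13 were lower and 0 higher (median -0.31). The sterol count was 2 without Touchdome replicate 2, HF replicate 2 or HF replicate 3, and 7 without IFE replicate 2. For ceramides and barrier lipids 6 of 14 were higher and 3 lower (median 0.59). Elovl5 and Elovl6, which lengthen fatty acids, stood at 21.1, 28.4 and 26.5 CPM and 43.2, 44.0 and 71.2 CPM against 52.3, 80.1 and 72.1 CPM and 134, 266 and 259 CPM (LFC -1.43, adjusted p = 5.91e-05, and LFC -2.06, adjusted p = 0.000707). Abca12, which loads lipid into the granules of the barrier, stood at 82.8, 78.4 and 76.8 CPM in Touchdome against 31.8, 38.0 and 26.9 CPM in HF (LFC 1.303 ± 0.17, adjusted p = 0.000102). Cers3, the ceramide synthase for very long chains, stood at 33.4, 28.8 and 20.5 CPM in Touchdome against 7.45, 8.33 and 12.2 CPM in HF (LFC 1.57 ± 0.24, adjusted p = 0.000392). Cers4, a ceramide synthase expressed in follicle and gland, stood at 8.12, 7.60 and 27.7 CPM in Touchdome against 134, 199 and 197 CPM in HF (LFC -3.61 ± 0.56, adjusted p = 0.00262). Abhd5 was higher (LFC 0.77, adjusted p = 0.000377) and Degs1 lower (LFC -0.84, adjusted p = 0.000107). Elovl6 and Cers4 were lowest in HF replicate 1 among the HF libraries, as were the sebaceous genes Pparg and Plin2, whose part in the lipid differences was not tested.

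Prostaglandin genes were higher in 4 of 9 cases and lower in 1, and retinoid genes were higher in 2 and lower in 5 of 13. The lower retinoid count was 3 without Touchdome replicates 1 or 2 or HF replicates 1 or 2, and the higher count was 1 without Touchdome replicate 3 or any 1 HF library. Ptges, which makes prostaglandin E2, stood at 102, 107 and 74.0 CPM in Touchdome against 13.9, 19.6 and 14.9 CPM in HF (LFC 2.56 ± 0.17, adjusted p = 5.98e-07). Slco2a1, which takes prostaglandins up, was at 242, 276 and 241 CPM in Touchdome against 78.5, 70.3 and 76.8 CPM in HF (LFC 1.75 ± 0.12, adjusted p = 5.36e-07). Ptgs1 (LFC 1.383, adjusted p = 0.000544) and the receptor Ptger4 (LFC 1.24, adjusted p = 0.000393) were higher, Hpgd, the enzyme that inactivates prostaglandins, was lower (LFC -0.81, adjusted p = 0.00217), and Ptgs2 did not pass (LFC -1.14, adjusted p = 0.0783). On the retinoid side Rara, a receptor for retinoic acid, was higher (LFC 0.72, adjusted p = 0.000434). Cyp26b1, which degrades retinoic acid, stood at 12.6, 6.79 and 16.02 CPM in Touchdome against 77.8, 75.3 and 117 CPM in HF (LFC -2.93 ± 0.43, adjusted p = 0.0013). Aldh1a1, which makes it, was lower too (LFC -1.67, adjusted p = 0.000699).

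Of 323 genes taken as transcription factors by symbol, 57 (17.6%) were higher and 91 (28.2%) lower, with a median of -0.20. Sox6, a regulator of cell fate in several tissues, stood at 94.5, 62.0 and 61.9 CPM in Touchdome against 1.55, 1.48 and 1.376 CPM in HF (LFC 5.62 ± 0.31, adjusted p = 4.93e-07). Hlf and Satb1, a clock-linked factor and a chromatin organiser of the epidermis, stood at 84.8, 103 and 54.0 CPM in Touchdome against 4.57, 4.11 and 7.86 CPM in HF (LFC 3.86 ± 0.31, adjusted p = 1.2e-05) and at 78.5, 94.1 and 56.7 CPM in Touchdome against 7.31, 8.01 and 9.04 CPM in HF (LFC 3.24 ± 0.18, adjusted p = 1.7e-07). In these 3 genes no HF library passed 10 CPM. Gata3, which directs epidermal barrier and inner root sheath genes, stood at 615, 870.2 and 547 CPM in Touchdome against 166, 194 and 173 CPM in HF (LFC 1.93 ± 0.20, adjusted p = 2.92e-05). Foxn1, the gene mutated in nude mice, was at 12.7, 16.5 and 11.9 CPM against 3.24, 2.63 and 2.10 CPM (LFC 2.35, adjusted p = 4.85e-05). Irf4 (LFC 4.65, adjusted p = 0.00149), Sox15 (LFC 4.03, adjusted p = 0.000106), Ets1 (LFC 2.79, adjusted p = 4.89e-06), Klf12 (LFC 2.36, adjusted p = 0.00733) and Hoxc4 (LFC 2.02, adjusted p = 1.13e-05) were higher. On the lower side Hoxd4 and Hoxd8 stood at 1.15, 1.25 and 3.82 CPM and 1.41, 1.43 and 5.98 CPM against 20.3, 22.97 and 32.9 CPM and 18.5, 30.0 and 31.3 CPM (LFC -3.62, adjusted p = 4.45e-05, and LFC -3.19, adjusted p = 0.00255). Foxi3, a hair placode factor (LFC -3.16, adjusted p = 0.00464), Nfatc4 (LFC -3.32, adjusted p = 0.00315) and Prdm1, a regulator of sebaceous differentiation (LFC -3.01, adjusted p = 0.000221), were lower.

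The called genes that varied most among the Touchdome libraries fell into a pair of patterns. Col8a2, a collagen, was at 6.01, 12.1 and 51.5 CPM in Touchdome against 319, 329 and 374 CPM in HF (LFC -3.88, adjusted p = 0.0103). Mme, a membrane peptidase, was at 2.43, 2.41 and 13.5 CPM against 50.96, 50.8 and 67.2 CPM (LFC -3.22, adjusted p = 0.00587), and St6galnac5, a sialyltransferase, at 0.575, 0.179 and 4.90 CPM against 19.8, 18.0 and 24.8 CPM (LFC -3.49, adjusted p = 0.0164), with adjusted p = 0.0514 without HF replicate 3. With Cd34, Lgr5, Grem1, Col6a2 and Chat these genes were highest in Touchdome replicate 3, on the side of HF. Krt16, a keratin of activated epidermis, and BC100530, a stefin relative with close copies, were instead highest in Touchdome replicate 1. Krt16 stood at 270.4, 32.4 and 114 CPM against 17.6, 9.27 and 17.7 CPM (LFC 3.21 ± 0.94, adjusted p = 0.0499) and lost its call in 10 alternatives, with adjusted p up to 0.14. BC100530 stood at 31.3, 2.50 and 8.88 CPM against 0.137, 0 and 0.131 CPM (LFC 6.99 ± 1.37, adjusted p = 0.00686).

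Markers of other cell types were checked as lists. The Merkel cell regulators Atoh1, Sox2 and Isl1 had 0 counts in all 6 libraries, Krt20 had 9 counts in Touchdome and 0 in HF, and of 3 tested Merkel genes, Krt8, Piezo2 and Cacna1a, none was called. List sums of CPM given here are over all members, tested or not. The T cell list, with 12 members, gave 166, 136 and 147 CPM in Touchdome against 12.5, 14.96 and 10.9 CPM in HF. Of its 7 tested genes 4 were higher. Most of that sum was Thy1, at 142, 115 and 128 CPM against 6.40, 4.43 and 6.29 CPM (LFC 4.47 ± 0.24, adjusted p = 2.65e-07), a gene that keratinocytes can also express. Trbc2 (LFC 1.22, adjusted p = 0.00644), Cd3e (LFC 3.67, adjusted p = 0.014) and Il2rb (LFC 3.53, adjusted p = 0.0187) were higher at low levels, and without Touchdome replicate 1 the last pair had adjusted p = 0.076 and 0.0735. Il2rb also missed the threshold without Touchdome replicate 3 or any 1 HF library (adjusted p of 0.0507 to 0.0597). The Langerhans cell and macrophage list gave 136, 109 and 243 CPM in Touchdome against 392, 356 and 130.4 CPM in HF, with 1 of 8 lower, Mfge8 (LFC -2.07, adjusted p = 0.000901), or 3 without HF replicate 3. The melanocyte list gave 19.0, 17.4 and 55.0 CPM in Touchdome against 103, 124 and 134 CPM in HF, with 1 of 8 lower, Mitf (LFC -2.69, adjusted p = 0.000335), or 4 without Touchdome replicate 3, and Tyr and Mlana too low to be tested. Fibroblast genes gave 66.9, 71.2 and 128 CPM in Touchdome against 126, 103 and 93.6 CPM in HF, with Dcn higher and Col1a2 lower (LFC -1.83, adjusted p = 0.00126). Col1a1 and Col3a1 were highest in Touchdome replicate 3, at 2.43, 3.58 and 31.1 CPM and 2.49, 1.43 and 19.7 CPM, against 14.7, 6.53 and 11.7 CPM and 0, 0 and 0.786 CPM in HF. Lum, another fibroblast gene, had 0 counts in these 6 libraries. Vwf, of endothelium (LFC 2.87, adjusted p = 0.0173, but 0.0512 to 0.0576 without Touchdome replicates 1 or 3 or HF replicate 3), and Mbp, of myelin (LFC 1.299, adjusted p = 4.66e-05), were higher, and of the smooth muscle and red blood cell genes Tagln and Hba-a1 did not pass (LFC -0.53, adjusted p = 0.607, and LFC 0.86, adjusted p = 0.672). The part of these cell types in the differences above was not tested.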

How the data were processed

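The authors deposited, per library, expected counts and TPM values for 55357 gene identifiers, and 52081 of these had a symbol in the GENCODE table used here. The submitters' processing notes name mm39, RSEM 1.3.3, STAR 2.7.9a and DESeq2 1.38.2 without their roles. Strand setting and annotation release were not given in the sources used here. As deposited, these expected counts are unscaled estimates that divide reads shared by near-identical genes. The TPM values deposited by the authors are scaled by length and carry no depth. Overlapping and antisense genes are uncertain.

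Expected counts were rounded. All 9 libraries entered 1 fit in edgeR 4.0.16 (R 4.3.3) after filterByExpr (minimum count 10, minimum total 15) and TMM scaling, with the robust quasi-likelihood test for Touchdome minus HF and Benjamini-Hochberg adjustment over all genes tested. Fold changes are log2 values ± SE. The test was checked on counts simulated with the dispersions fitted here. The simulated counts hold no library that stands apart as Touchdome replicate 3 does, so the check does not cover that case. Deviations from the group mean correlated little between Touchdome and HF libraries of the same replicate number (0.0701, -0.0257 and 0.0327 over all genes tested). For unlike numbers the correlations ran from -0.0807 to 0.043. Whether some genes share an effect of the replicate number was not tested, and a fit with the number as a block is given below. Libraries of a group differed by more than counting noise (chi-square over its degrees of freedom 16.8 to 26). Intervals cover counting error only.

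The members and gene lists were chosen with earlier results of these data known, and the role groups inside lists after values were seen. Named genes are members of lists, with up to 4 called members of smallest p per list. They also include the 20 higher and 20 lower genes of greatest fold (called, at least 10 CPM, no overlap), 10 each by level and 10 each among transcription factors (at least 5 CPM), and the 10 called genes most variable in Touchdome. RefSeq promoters (GRCm38.p6) were matched by symbol. A few genes that count in list totals are not reported here by name or drawn.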

Additional observations from a re-analysis of the deposited data

How the results depend on the processing

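The count of genes higher in Touchdome ranged from 1287 (limma 3.58.1 on log2(TPM + 1)) to 2126 (without IFE replicate 2), and that of genes lower from 1324 (without Touchdome replicate 1) to 2220 (without IFE replicate 2). Both stayed within 1.5 times of 1773 and 1930 under every alternative run. DESeq2 1.42.0 called 1947 and 2193 genes, RLE size factors 1744 and 1966, no low-count filter 1778 and 1828, a mean of at least 10 CPM 1335 and 1399, and a fit of the 6 libraries alone 1942 and 2092. With the replicate number as a block, 1890 genes were higher (1736 shared with the fit without the block) and 2139 lower (1893 shared).

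Of 426 called genes eligible to be named, 0 changed sign. Leaving out 1 Touchdome or HF library ended 34 to 60 of these calls, limma ended 43, the block 7 and DESeq2 0. In limma the calls of Col4a1, Trim30a, Egfr, Lamb1, Stat2, Erbb3 and Cdkn2d were among those lost (adjusted p of 0.0528 to 0.33), and Krt77 had 0.0554 with no low-count filter. The 1 gene that reversed was not called in the main fit, Col1a1, with a log2 fold change of 0.15 ± 0.89, which ranged from -1.88 without Touchdome replicate 3 (adjusted p = 0.0126), the library in which it was highest, to 0.67 without Touchdome replicate 1. Lower immediate early genes numbered 14 with the block and 10 in DESeq2, against 6. With the filter at a mean of 10 CPM, which tests fewer genes, 12 interferon and 7 sebaceous members were called. A difference in genes under 3 counts a library could not be seen at this depth.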
